A study of Mus musculus with 28 samples.

Results

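The Cadm family (cell adhesion molecules of the immunoglobulin superfamily, also called SynCAM or nectin-like molecules) consists of 4 genes, Cadm1, Cadm2, Cadm3 and Cadm4. All 4 were found by symbol among 41605 genes counted in a timeline of mouse peripheral nerve, and all 4 were among the 17700 genes that passed the filter on low counts. The data are bulk RNA sequencing of 28 libraries, 4 for each of 7 stages, namely embryonic days 13 and 17 as labelled (E13 and E17) and postnatal days 1, 5, 14, 24 and 60 (P1 to P60). All mice were wild-type C57BL/6J and were not perfused. Each E13 library came from nerves distal to the dorsal root ganglia, pooled from 2 embryos and not stripped, although the label names the sciatic nerve at every stage. Each E17 library pooled sciatic nerves of 2 embryos, each postnatal library came from 1 mouse, and from E17 on the epineurium and perineurium were stripped off.

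Cadm proteins span the membrane, carry immunoglobulin-like domains outside the cell and bind one another across the gap between neighbouring cells, often preferring a different member of the family. Along the internode of a myelinated axon, Cadm4 is known as the member on the Schwann cell side and Cadm3 as its main binding partner on the axon, while Cadm1 and Cadm2 are also found on axons and Cadm1 on many other cell types. Inside the cell their short tails bind 4.1 proteins and PDZ-domain scaffolds of the MAGUK group, which tie the contact to the cytoskeleton. The contact is known for keeping axon and Schwann cell together and for a part in myelination.

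The 4 genes lie on different chromosomes (GENCODE M21, GRCm38). Cadm1 (ENSMUSG00000032076) lies on chromosome 9 from 47530173 to 47857637 on the plus strand, and Cadm2 (ENSMUSG00000064115) on chromosome 16 from 66655421 to 67620908 on the minus strand. Cadm3 (ENSMUSG00000005338) lies on chromosome 1 from 173333258 to 173367695 on the minus strand, and Cadm4 (ENSMUSG00000054793) on chromosome 7 from 24482023 to 24504539 on the plus strand. The longest transcript of Cadm2 had the lowest GC content of the 4 (36.9%), followed by those of Cadm1 (43.9%), Cadm3 (53.5%) and Cadm4 (60.02%). The last exonic stretch of Cadm3 overlaps the exons of Ackr1, a chemokine receptor gene on the same strand, by 361 bases, so that the counting of reads in this stretch is uncertain.

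Promoter windows of 300 bases (250 before to 50 after the start of the gene, RefSeq, GRCm38.p6) were at hand for 3 of the 4 genes. They are shown because Cadm2 and Cadm3 both rose steeply from E17 to P1 while Cadm4 did not, and because the 3 windows differ in base composition. Each is written 5′ to 3′ on the strand of its gene, with capitals marking matches to the GC box GGGCGG on either strand. The Cadm2 window is at chr16:67620859-67621158 (minus strand), the Cadm3 window at chr1:173367646-173367945 (minus strand) and the Cadm4 window at chr7:24481773-24482072 (plus strand).
Cadm2: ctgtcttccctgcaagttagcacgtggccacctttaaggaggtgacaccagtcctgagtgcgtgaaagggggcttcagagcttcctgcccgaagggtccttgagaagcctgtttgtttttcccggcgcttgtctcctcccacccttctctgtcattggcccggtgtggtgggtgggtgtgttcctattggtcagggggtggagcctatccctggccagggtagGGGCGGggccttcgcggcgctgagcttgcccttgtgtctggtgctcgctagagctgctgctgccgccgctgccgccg
Cadm3: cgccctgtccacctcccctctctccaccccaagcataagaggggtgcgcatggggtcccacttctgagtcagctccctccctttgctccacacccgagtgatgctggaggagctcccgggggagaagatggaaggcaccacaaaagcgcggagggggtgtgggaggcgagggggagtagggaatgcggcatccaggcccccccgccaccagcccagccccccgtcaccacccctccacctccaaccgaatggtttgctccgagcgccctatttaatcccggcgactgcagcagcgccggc
Cadm4: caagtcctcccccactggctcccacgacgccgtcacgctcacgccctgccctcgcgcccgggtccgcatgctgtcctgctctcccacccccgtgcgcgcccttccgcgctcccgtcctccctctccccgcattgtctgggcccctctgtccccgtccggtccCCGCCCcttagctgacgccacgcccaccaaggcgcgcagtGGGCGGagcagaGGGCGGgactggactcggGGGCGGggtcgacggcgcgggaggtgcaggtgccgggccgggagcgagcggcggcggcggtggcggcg

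The Cadm4 window had the highest GC content of the 3 (77%, higher than in 97.57% of 32817 promoter windows) and 40 CpG dinucleotides, against a median of 7 over all windows. The Cadm3 window had 66.67% GC and 17 CpG, and the Cadm2 window 62.67% GC and 15 CpG. GGGCGG was found at 4 places in the Cadm4 window, at 1 in the Cadm2 window and nowhere in the Cadm3 window, and 35.6% of all windows hold at least 1 match. The Sox-type motif ACAANG was found once each in the Cadm2 and Cadm4 windows and in 41.3% of all windows, while the Egr-type motif GCGNGGGCG was in none of the 3 windows and in 5.56% of all. Both strands were searched, the Egr-type motif can share its last letters GGGCG with a GC box, and a match is a description of letters only.

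Some libraries stood apart before any comparison. E13 replicates 1 and 4 and P1 replicate 1 deviated most from the mean of their stage with the GC content of the genes. Their slopes were -0.93, 0.73 and -0.43 log2 units per 10 percentage points of GC. These slopes took up 70.7%, 56.2% and 63.6% of the variance of their deviations. Slopes of the other libraries ran from -0.16 to 0.20. The steepest of them, in P1 replicates 3 and 4 (0.18 and 0.20), took up 43.4% and 52.1%. The members' changes that rest on these libraries are given with and without them where both values are at hand, while other genes were fitted with all libraries. The tissue label was checked against markers. The summed level of 5 Schwann lineage markers, in TMM-scaled CPM (read counts divided by a scaled library size, CPM below), was 298 to 605 at E13 and 2404 to 4926 in every later library. The 10 markers of neuronal cell bodies summed to 1696 to 3131 CPM at E13, against 29.9 to 134 in the 24 later libraries. Total counts were 13899895 to 37662780 per library. In bulk tissue, fewer cells of a type and less RNA per cell cannot be told apart.

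Each member varied along the timeline (edgeR quasi-likelihood F test over all stages, adjusted p of 6.5e-12 for Cadm1, 9.7e-13 for Cadm2, 9.4e-23 for Cadm3 and 5.0e-11 for Cadm4). The same test called 88.8% of all genes, so that varying with the stage did not set the family apart. The plotted time courses took different shapes. Cadm1 was highest at E17 and declined to the adult, and Cadm2 was highest at P60. Cadm3 was lowest at E17 and then climbed, most steeply until P14, and Cadm4 was high from E17 on.

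**Figure D1:**
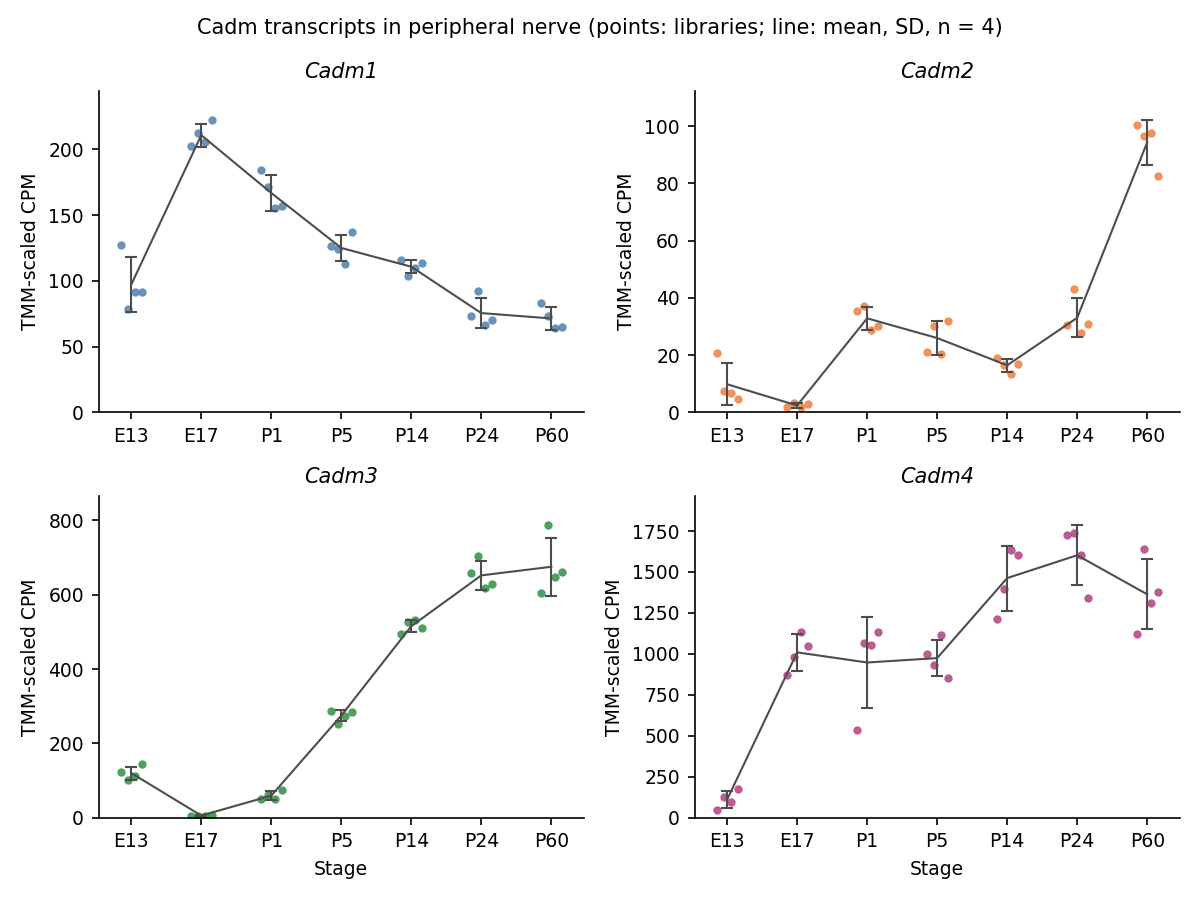
Level of each Cadm transcript (TMM-scaled CPM, linear axis from 0, own scale per panel) by stage. Points are the 4 libraries of a stage, the line joins the means and bars are SD. Cadm1 peaks at E17 (mean 211 CPM), Cadm2 at P60 (94.3 CPM), Cadm3 is at 6.10 CPM at E17 and 675 CPM at P60, and 1 of the 4 P1 libraries is low for Cadm4 (537 CPM).

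Cadm4, the Schwann cell member of the internodal contact, had 48.7, 125, 98.9 and 173 CPM in E13 replicates 1 to 4. At E17 it had 874, 979.5, 1136 and 1048 CPM. The groups did not overlap, and every E17 library was higher than every E13 library. Cadm4 was 9.07-fold higher at E17 (log2 fold change 3.18 ± 0.26 SE, edgeR adjusted p = 4.7e-11). The Schwann lineage markers rose over the same interval, from a mean sum of 432 to 2509 CPM, and their part in this rise was not tested. The value without the 3 GC-deviating libraries was 3.18 as well. Of the 4 members, Cadm4 has the longest transcript richest in GC. Its lowest E13 library was replicate 1 and its highest replicate 4, the libraries with the most negative and the most positive GC slope.

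From E17 to P5, Cadm4 showed no called change. At P1 it had 537, 1067, 1055 and 1131 CPM in replicates 1 to 4, so that 3 libraries lay within the range of E17 and replicate 1 was well under it. At P5 it had 999.98, 932, 1114 and 853 CPM, which overlapped both earlier stages. The difference of P1 against E17 was -0.09 on the log2 scale, with an interval of -0.57 to 0.39 at 2 SE (adjusted p = 0.823, edgeR), and that of P5 against P1 was 0.04, with an interval of -0.44 to 0.52 (adjusted p = 0.947, edgeR). Without P1 replicate 1 both differences changed sign, to 0.10 and -0.14, and neither was called.

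At P14 Cadm4 had 1212, 1398, 1635 and 1606 CPM, and P24 libraries had 1724, 1738, 1604 and 1342 CPM. All 8 of these libraries were above all 4 libraries of P5 and of E17. The difference of P14 against P5 was 0.59 ± 0.24 on the log2 scale and did not pass the threshold (edgeR adjusted p = 0.0688), nor did P14 against E17 (0.53 ± 0.24, adjusted p = 0.0607). Both were called where the 3 GC-deviating libraries were left out (0.59 and 0.55, edgeR adjusted p of 9.2e-05 and 1.2e-04). They were also called without the E13 libraries and in the fits of the 2 compared stages alone. In the fit of all libraries, P24 was called as higher than E17 and P5 (0.67 and 0.72, edgeR adjusted p of 0.0192 and 0.0185). P14 and P24 were also called as higher than P1, its low replicate 1 included (0.63 and 0.76, edgeR adjusted p of 0.0328 and 0.00943). P60 against P5 was not called (0.48, adjusted p = 0.0952, edgeR). At P60 the values were 1124, 1642, 1313 and 1377 CPM, and P24, P14 and P60 could not be ordered beyond their spread (P60 against P24 at -0.23, adjusted p = 0.599, edgeR).

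Cadm3, the axonal partner of Cadm4, had 122, 102, 113 and 144 CPM at E13 and 5.94, 5.86, 5.24 and 7.35 CPM at E17. Every E17 library was far under every E13 library. The fall was 19.8-fold (log2 fold change -4.31 ± 0.14, edgeR adjusted p = 9.6e-19), and -4.15 without the GC-deviating libraries. The 10 neuronal cell body markers fell over the same interval, from 1696 to 3131 CPM in sum at E13 to 91.7 to 102 CPM at E17. Tubb3 and Stmn2, both genes of the neuronal cytoskeleton, had means of 796 and 775 CPM at E13 and of 10.4 and 12.7 CPM at E17. At the later stages 4 to 6 of the 10 markers had a mean under 1 CPM, and none was at 0 in all libraries of a stage. The part of neuronal RNA in the E13 level of Cadm3 was not tested, and E13 also differs from E17 in the nerves taken and in the stripping, which cannot be told apart from age.

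After E17 Cadm3 rose at each of the next 3 steps. At P1 it had 50.05, 62.0, 50.9 and 75.5 CPM, 9.81-fold more than at E17 (log2 3.29 ± 0.14, edgeR adjusted p = 1.8e-16). At P5 it had 288, 253, 273 and 285 CPM, a further 4.61-fold (log2 2.20 ± 0.13, edgeR adjusted p = 1.5e-12). At P14 it had 494, 526, 531 and 510.4 CPM, a further 1.87-fold (log2 0.91 ± 0.12, edgeR adjusted p = 2.3e-06). None of these 4 stages overlapped with a neighbour. Without the GC-deviating libraries the first 2 steps were 3.37 and 2.14 on the log2 scale. Over the interval from E17 to P14 the level increased 84.8-fold (log2 6.41 ± 0.16, edgeR adjusted p = 7.2e-22).

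Marker sums between E17 and P14 were as follows. The neuronal cell body markers summed to 91.7 to 102 CPM at E17, 29.9 to 52.3 CPM at P1, 38.6 to 48.6 CPM at P5 and 47.6 to 59.4 CPM at P14. The 6 markers of myelinating Schwann cells summed to 2535 to 2912 CPM at E17, 13835 to 25672 CPM on P1, 60611 to 66752 CPM on P5 and 102656 to 125504 CPM on P14. The mean of the Schwann lineage sum was 2509 CPM at E17, 3585 CPM at P1, 4298 CPM at P5 and 4831 CPM at P14. That of the perineurial sum was 262 CPM at E17, lower at P1 and P5 (195 and 201 CPM), and 516 CPM at P14. Which cells held the Cadm3 transcript was not tested in these libraries.

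The later steps of Cadm3 were smaller. At P24 it had 658, 703, 617 and 629.6 CPM, all above P14, but the difference of 0.34 ± 0.12 on the log2 scale was not called (edgeR adjusted p = 0.121). It was called without the 3 GC-deviating libraries (0.35, edgeR adjusted p = 0.012). At P60 it had 604, 787, 648 and 661 CPM, which overlapped P24 (difference 0.05, interval -0.19 to 0.30 at 2 SE). Every P60 library was above every P14 library, and P60 against P14 was called (log2 0.39 ± 0.12, edgeR adjusted p = 0.0167, 29.9% of all genes called). E13 took its place between P1 and P5 in the order of levels, 2.02-fold above P1 (edgeR adjusted p = 6.9e-08, 64.7% of all genes called in P1 against E13) and 2.28-fold under P5 (edgeR adjusted p = 3.6e-09, 64.3% of all genes called in P5 against E13). Without the GC-deviating libraries both were called in the same directions, with P1 against E13 at -0.78 and P5 against E13 at 1.36 on the log2 scale.

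**Figure D2:**
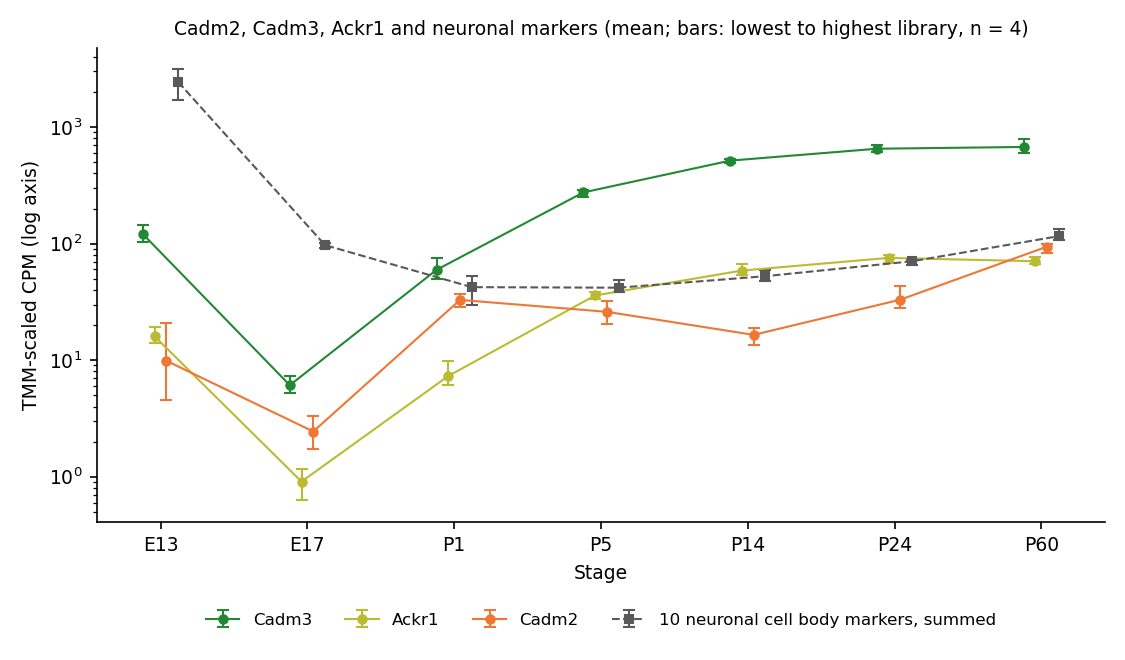
Mean level (TMM-scaled CPM, log axis) of Cadm3, of Ackr1, which shares exonic bases with it, of Cadm2, and of 10 neuronal cell body markers summed, by stage. Bars run from the lowest to the highest of 4 libraries. The markers drop from E13 to E17 and stay at 29.9 to 134 CPM in the later libraries, while Cadm3 rises from 6.10 CPM at E17 to 652 CPM at P24, and Ackr1 runs below Cadm3 in the same shape.

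Ackr1 ran close to Cadm3 at every stage. Its mean was 16.0 CPM at E13 and 0.907 CPM at E17, then 7.32 CPM at P1 and 35.9 CPM at P5, and it reached 58.7 CPM by P14, 75.4 CPM by P24 and 70.6 CPM by P60. Its total over the 28 libraries was 21805 counts, against 185627 for Cadm3. Ackr1 is known from venular endothelium and red blood cells, and 5 endothelial markers summed to a mean of 178 CPM at E13 and 288 CPM at E17, had their lowest mean at P1 (161 CPM) and then increased to 390 CPM at P60. One of them, the tight junction gene Cldn5, had 5.63 CPM at P1 and 83.1 CPM at P60. The part of endothelial RNA in Ackr1 was not tested. How many of the Ackr1 counts were reads from the last Cadm3 exon was not tested.

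Cadm2, a member mainly known from neurons, had the lowest level per exon length of the family at every stage but P60, and at P60 too with the longest transcript as the length (9.86 CPM per kb, against 15.0 for Cadm1). At E13 it had 20.7, 7.47, 6.75 and 4.58 CPM and at E17 1.87, 3.33, 1.75 and 2.83 CPM, so that E17 lay under E13 in every library. The fall was 4.11-fold (log2 -2.04 ± 0.32, edgeR adjusted p = 4.8e-06), and -1.56 without the GC-deviating libraries. Replicate 1, the E13 library with the most negative GC slope, held the highest level of this gene, whose longest transcript is the poorest in GC of the family. Between 34 and 63 reads per library stood behind the E17 values.

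At P1 Cadm2 had 35.4, 37.1, 28.7 and 30.3 CPM, 13.6-fold above E17 (log2 3.76 ± 0.33, edgeR adjusted p = 8.6e-10, and 3.73 without the GC-deviating libraries). It then had 21.3, 30.2, 20.5 and 32.0 CPM at P5 and 19.0, 16.6, 13.5 and 16.9 CPM at P14. Neither step was called (log2 -0.34, adjusted p = 0.465, and log2 -0.66, adjusted p = 0.0813, edgeR). All P14 libraries were nevertheless under all P5 libraries, and the second step was called without the GC-deviating libraries (-0.66, edgeR adjusted p = 0.0020). The first step was -0.28 without them and was not called (adjusted p = 0.242, edgeR). Across both steps the fall was called in the fit of all libraries. P14 against P1 was -0.997 ± 0.284 on the log2 scale (edgeR adjusted p = 0.00467), and the libraries did not overlap.

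At P24 Cadm2 was at 30.6, 43.0, 27.8 and 30.8 CPM, 2.01-fold above P14 (log2 1.01 ± 0.28, edgeR adjusted p = 0.0335). This call was lost with no filter on low counts (adjusted p = 0.0763) and in 7 of the 8 fits that left out 1 library, although the value stayed between 0.85 and 1.08. At P60 Cadm2 had 100.2, 96.7, 97.7 and 82.7 CPM, with every library above every earlier one. This was 2.85-fold above P24 (log2 1.51 ± 0.28, edgeR adjusted p = 3.6e-04) and 38.9-fold above E17. P24 and P1 did not differ beyond their spread (log2 0.01, interval -0.55 to 0.57 at 2 SE, adjusted p = 0.989, 56.1% of all genes called). Without the GC-deviating libraries this difference was 0.07 and was not called either (adjusted p = 0.733, edgeR). P14 was above E13 in the fit (log2 0.73, edgeR adjusted p = 0.0270, 70.3% of all genes called), but the libraries overlapped and the difference was -0.026 with library size as the only scaling. The call was also lost with no filter on low counts (adjusted p = 0.0539), in the 2 compared stages alone (adjusted p = 0.179), and without E13 replicate 2, 3 or 4 or P14 replicate 1. With 1 library left out the value ran from 0.50 to 1.38, and without the GC-deviating libraries it was 1.23 (edgeR adjusted p = 2.5e-05).

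The neuronal cell body markers also had their highest postnatal sum at P60, at 107 to 134 CPM, against 65.8 to 72.4 CPM at P24. Uchl1 (72.6 CPM at P60), Stmn2 (26.8 CPM) and Snap25 (8.45 CPM) made up most of it, while Rbfox3 and Isl1, a splicing and a transcription factor of neurons, had means of 0.37 and 0.10 CPM. The 5 perineurial markers summed to 520.3 to 799 CPM at P24 and 994 to 1400.0 CPM at P60. The part of these cells in the rise of Cadm2 was not tested.

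Cadm1, the most widely expressed member of the family, had 127, 78.4, 91.5 and 91.3 CPM at E13 and 202, 213, 206 and 222 CPM at E17. The groups did not overlap, and the level rose 2.17-fold (log2 1.12 ± 0.12, edgeR adjusted p = 1.2e-08). Without the GC-deviating libraries the rise was 1.31 on the log2 scale. E17 was the highest stage, with every library above those of all other stages. The 5 markers of non-myelinating and immature Schwann cells were highest at E17 too, at 1645 to 1803 CPM in sum, and had 804 to 884 CPM at P1, 578 to 622 at P5 and 1115 to 1310 at P60. Most of the P60 sum was Scn7a, with a mean of 977 CPM against 186 CPM at P1, and the 4 other markers were lower at P60 than at P1. Their part in the course of Cadm1 was not tested.

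Cadm1 then declined in small steps. P1 libraries had 184, 171, 155 and 157 CPM, all under E17 (log2 -0.34 ± 0.12, edgeR adjusted p = 0.0369), but 7 of the 8 fits with 1 library left out lost this call, as did the fit with no filter on low counts (adjusted p = 0.159). Without the GC-deviating libraries the value was -0.40 and was called. P5 libraries had 126, 124, 113 and 137 CPM, all under P1 (log2 -0.42 ± 0.12, edgeR adjusted p = 0.0168). This call was lost where only P1 replicate 1 (-0.35) or only P5 replicate 3 (-0.37) was left out. It was kept without the 3 GC-deviating libraries (-0.35, edgeR adjusted p = 0.0047). P14 libraries had 116, 104, 109.8 and 113 CPM and overlapped P5 (log2 -0.17, interval -0.42 to 0.07 at 2 SE, adjusted p = 0.306, edgeR).

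At P24 Cadm1 had 73.2, 92.1, 66.4 and 70.5 CPM, all under P14 (log2 -0.55 ± 0.12, edgeR adjusted p = 0.00528). At P60 it had 83.0, 73.4, 64.0 and 65.4 CPM, which did not differ from P24 beyond the spread (log2 -0.08, interval -0.33 to 0.16 at 2 SE). Over the postnatal period as a whole, P60 was 2.34-fold under P1 (log2 -1.22 ± 0.12, edgeR adjusted p = 2.3e-09, and -1.15 without the GC-deviating libraries). E13 stood between P14 and P24 in the order of levels and overlapped both, with P14 not called against it (adjusted p = 0.167) and P24 called as lower (log2 -0.36, edgeR adjusted p = 0.0100, 71.6% of all genes called). The call against P24 was lost without E13 replicate 1 (-0.20), in the 2 compared stages alone (adjusted p = 0.133) and without the GC-deviating libraries (-0.15, adjusted p = 0.22). P14 was called as higher than E13 without the GC-deviating libraries (0.40, edgeR adjusted p = 0.0018) and without E13 replicate 1 (0.34, edgeR adjusted p = 0.0061), and as lower with library size as the only scaling (-0.55, edgeR adjusted p = 2.0e-04).

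**Figure D3:**
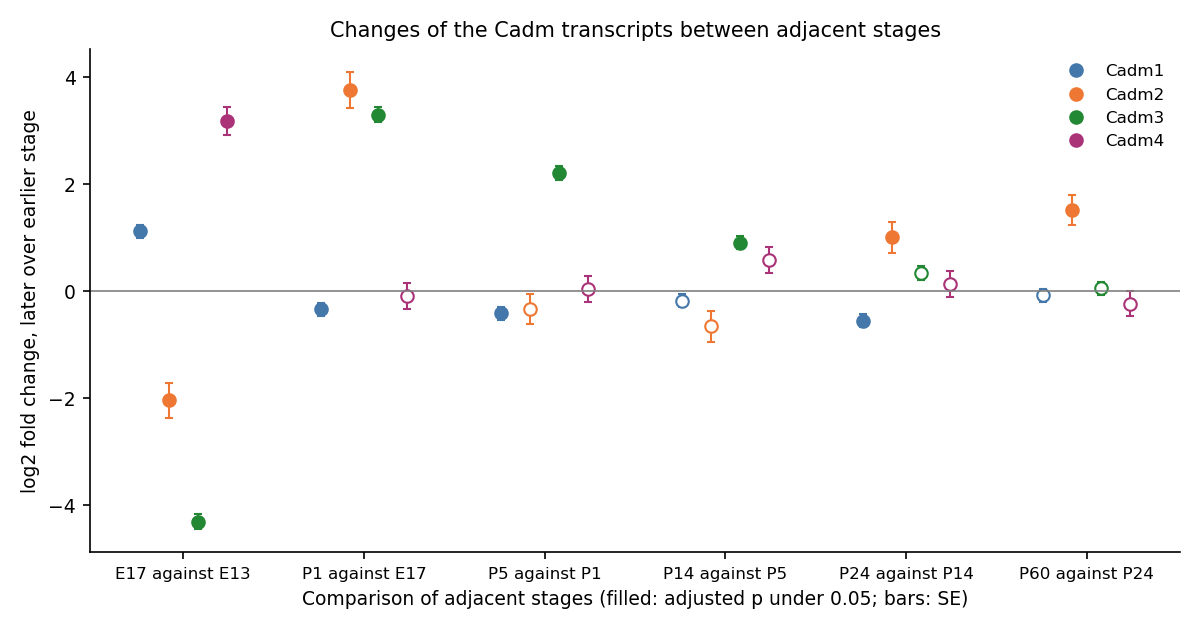
Log2 fold change of each Cadm transcript between adjacent stages (later over earlier) with SE from the edgeR quasi-likelihood fit of 28 libraries. Filled points have an adjusted p under 0.05 over 17700 genes. All 4 points are filled for E17 against E13, in both directions, and Cadm2 and Cadm3 stand at 3.76 and 3.29 for P1 against E17.

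Set against all genes, the family's calls ran as follows. From E13 to E17, 2 of the 4 members rose and 2 fell, while 62.2% of all genes were called. From E17 to P1, 2 rose (Cadm2, Cadm3) and 1 fell (Cadm1), with 29.5% of all genes called. From P1 to P5, 1 rose (Cadm3) and 1 fell (Cadm1), with 17.6% of all genes called. From P5 to P14 only Cadm3 was called, against 29.6% of all genes.

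From P14 to P24, 1 rose (Cadm2) and 1 fell (Cadm1), and 5.45% of all genes were called. From P24 to P60 only Cadm2 was called, against 16.1% of all genes. Across the wider intervals, 2 members were called as higher and 1 as lower both for P60 against P1 (61.1% of all genes called) and for P14 against E17 (56.5% of all genes called), and Cadm4 was not called in either. Under the alternatives, however, Cadm4 was called as higher in 9 of 19 values for P60 against P1 (0.36 to 0.64 where called) and in 6 of 19 for P14 against E17 (0.51 to 0.62 where called).

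For Cadm4, 4 further pairs of stages that neighbour each other in its order of levels were compared. P60 did not differ from P14 beyond the spread (log2 -0.10, 29.9% of all genes called), nor P5 from E17 (log2 -0.05, 41% of all genes called), and P60 against E17 was 0.43 with an adjusted p of 0.118 by edgeR (64.3% of all genes called). P60 against E17 was called without the GC-deviating libraries (0.45, edgeR adjusted p = 8.2e-04). Of the 6 neighbouring pairs in this order, only P1 against E13 was called (log2 3.09 ± 0.26, edgeR adjusted p = 5.9e-11, and 3.28 without the GC-deviating libraries).

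Per exon length, so that genes could be set side by side, Cadm4 had the highest mean of the family at every stage. Its mean level was 51.5 CPM per kb of exon at E13 and between 439 (P1) and 467 (E17) from E17 to P5, and P14, P24 and P60 had means of 677, 741 and 631 CPM per kb. Cadm3 had 16.6 CPM per kb at E13, 0.841 at E17 and 8.22 at P1, and P5, P14, P24 and P60 had means of 37.9, 71.1, 89.9 and 93.1 CPM per kb. Cadm1 ran from 20.2 CPM per kb at E17 down to 6.85 at P60, and Cadm2 from 0.249 at E17 to 9.61 at P60.

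In shares of the summed CPM per kb, Cadm4 made up 63.0% ± 14.5 (SD, n = 4) at E13, 95.6% ± 0.438 at E17 and 85.1% ± 0.999 at P60. The share of Cadm3 was 22.3% ± 6.36 at E13, 0.174% ± 0.0304 at E17, 7.59% ± 0.884 at P5 and 12.6% ± 0.537 at P60. The share of Cadm1 declined from 13.1% ± 6.65 at E13 and 4.16% ± 0.403 at E17 to 0.944% ± 0.225 at P60, where Cadm2 held 1.322% ± 0.250. Without the GC-deviating libraries Cadm4, Cadm3 and Cadm1 had 68.3%, 19.8% and 10.9% at E13 (2 libraries). P60 was the only stage at which the mean share of Cadm2 exceeded that of Cadm1. These shares depend on the length used, since with the longest transcript in place of all exons Cadm4 had 80.1% and Cadm1 1.94% at P60, above the 1.27% of Cadm2. At E13 that length gave Cadm4 a mean share of 51.5%, Cadm3 24.9% and Cadm1 22.5%, and in 1 of the 4 libraries Cadm1 led with 35.6%, against 30.0% for Cadm4.

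**Figure D4:**
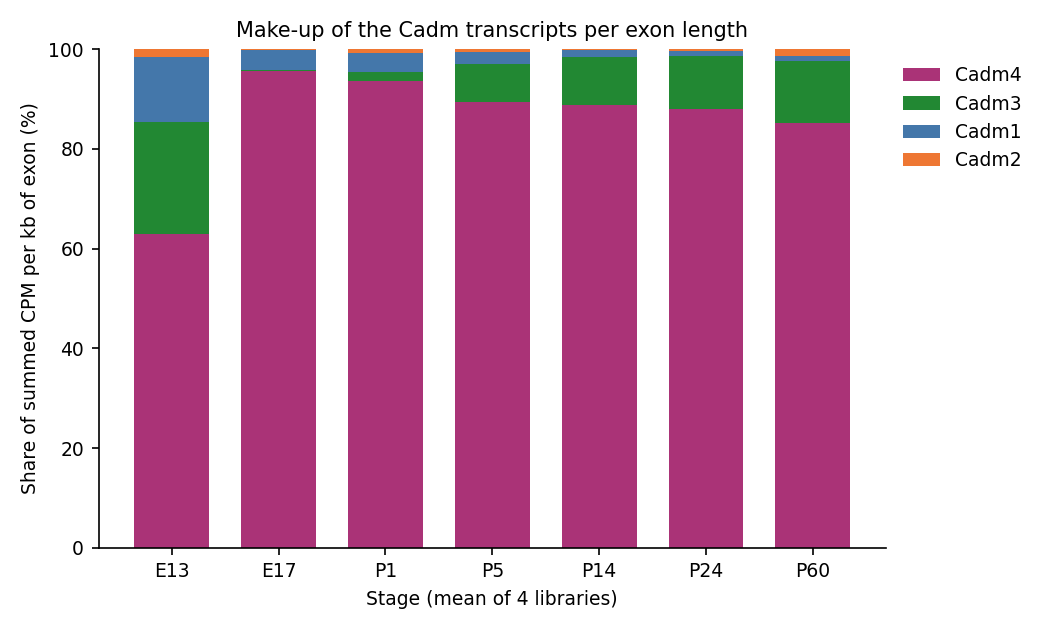
Share of each member in the summed level of the family per kb of exon (percent of summed TMM-scaled CPM per kb, means of 4 libraries, bars stacked to 100). Cadm4 takes 63.0% at E13 and 85.1% to 95.6% at the later stages, and Cadm3 grows from 0.174% at E17 to 12.6% at P60.

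The sum of the family per length was 78.4 ± 23.2 CPM per kb at E13 (mean ± SD, n = 4), 488 ± 51.5 at E17, 466 ± 127 on P1 and 504 ± 49.8 on P5. Without the GC-deviating libraries it was 75.5 at E13 and 529 at P1. P14, P24 and P60 had sums of 760.3 ± 92.8, 842 ± 89.5 and 741 ± 109 CPM per kb. The libraries of E17, P1 and P5 lay between 277 and 566, and those of the last 3 stages between 622 and 915.

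Among the cytoplasmic partners, 12 genes of 4.1 proteins and PDZ scaffolds that bind Cadm tails were listed and all 12 were tested. From E13 to E17, 2 of them rose and 6 fell (62.2% of all genes called), from E17 to P1 3 rose and 6 fell (29.5%), and from P1 to P5 1 rose and 3 fell (17.6%). From P5 to P14 none rose and 5 fell (29.6% of all genes called), from P14 to P24 none was called (5.45%), and from P24 to P60 1 rose and 3 fell (16.1%). Across P14 against E17 all 12 were called, against 56.5% of all genes, 3 higher and 9 lower, with a median log2 fold change of -0.93 against 0.00 over all genes. P60 against P1 had 1 higher and 6 lower (61.1% of all genes called).

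Epb41l2, which encodes the 4.1G protein of Schwann cells, rose with Cadm4 from E13 to E17 (log2 2.34 ± 0.16, edgeR adjusted p = 9.5e-13) and went on rising after birth. It had 537, 538, 547 and 545 CPM at E17, 1075, 1177, 994 and 1178 CPM at P1 and 1747, 1664, 1695 and 1800 CPM at P5. These groups did not overlap, and the steps were 1.03 ± 0.15 and 0.64 ± 0.15 on the log2 scale (edgeR adjusted p of 6.7e-06 and 0.00296). Its mean fell again from 1596 CPM at P24 to 1075 CPM at P60 (log2 -0.57, edgeR adjusted p = 0.00911), an interval in which Cadm4 was not called.

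Epb41l3, which encodes the 4.1B protein, took a different course. It peaked at E17 with 440, 487, 459 and 501 CPM and had 282, 293, 276 and 277 CPM at P1. At P60 it had 46.3, 35.8, 37.5 and 35.9 CPM. The fall from P1 to P60 was -2.86 on the log2 scale (edgeR adjusted p = 2.2e-14), and that of Cadm1 over the same interval -1.22.

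Mpp6, a MAGUK scaffold now also called Pals2 that is known to bind Cadm4 in Schwann cells, rose from E17 to P1. It had 32.1, 25.3, 24.2 and 27.1 CPM at E17 and 378, 315, 285 and 296 CPM at P1. The rise was 3.55 ± 0.22 on the log2 scale (edgeR adjusted p = 1.0e-12), beside 3.76 for Cadm2 and 3.29 for Cadm3. Unlike Cadm3 it then fell, to 131, 107, 105 and 112 CPM at P14 (log2 -1.21 from P5, edgeR adjusted p = 4.5e-05) and a mean of 54.1 CPM at P60.

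**Figure D5:**
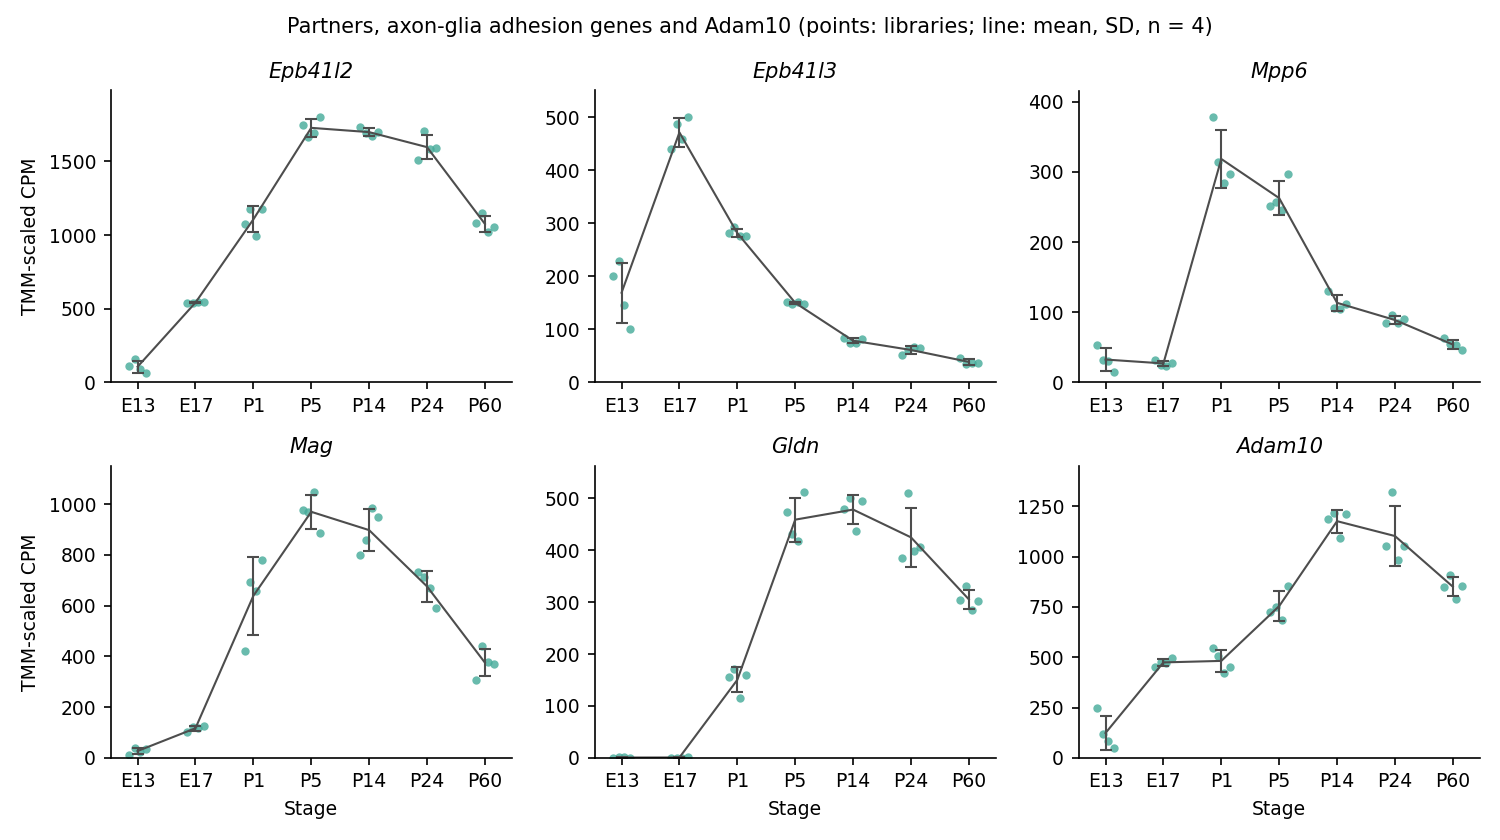
Level (TMM-scaled CPM, linear axis from 0, own scale per panel) of 3 cytoplasmic partners, of the adhesion genes Mag and Gldn and of the protease gene Adam10 by stage. Points are libraries, the line joins the means of 4 and bars are SD. The highest mean is at E17 for Epb41l3 (472 CPM), at P1 for Mpp6 (318 CPM), at P5 for Epb41l2 and Mag (1727 and 970 CPM), and at P14 for Gldn and Adam10 (479 and 1176 CPM). Epb41l2 at P14 (1698 CPM) was not called against P5, nor Adam10 at P24 (1102 CPM) against P14.

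The nectins and other relatives had 7 genes listed and 6 tested, since Crtam, a binding partner of Cadm1 on lymphocytes, had a mean of at most 0.15 CPM at any stage and did not pass the filter. Of the 6, 2 rose and 2 fell from E13 to E17 (62.2% of all genes called), 2 fell from E17 to P1 (29.5%) and 1 fell from P5 to P14 (29.6%). None was called from P1 to P5, from P14 to P24 or from P24 to P60, where 17.6%, 5.45% and 16.1% of all genes were. P60 against P1 had 1 higher and 3 lower (61.1% of all genes called), and P14 against E17 4 lower (56.5%). Nectin2 and Pvr, the cell adhesion receptors with the highest level per length on this list, were at 30.6 and 42.0 CPM at E17 and at 13.4 and 19.1 CPM at P60. Their fall from P1 to P60 was called for both (log2 -0.62 and -0.52, edgeR adjusted p of 0.031 and 0.0014).

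The other adhesion molecules of the axon-glia contact had 9 genes listed and tested. They had 2 rises and 3 falls from E13 to E17 (62.2% of all genes called), 4 rises and 2 falls from E17 to P1 (29.5%), 3 rises from P1 to P5 (17.6%) and 2 rises from P5 to P14 (29.6%). None was called from P14 to P24 (5.45% of all genes) and 2 fell from P24 to P60 (16.1%). P60 against P1 had 4 higher and 2 lower (61.1% of all genes called). P14 against E17 had 5 higher and 1 lower (56.5% of all genes called), with a median log2 fold change of 1.13 against 0.00 over all genes.

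Mag, a sialic acid-binding protein of the periaxonal Schwann cell membrane, had a mean of 117 CPM at E17, 639 CPM at P1 and 970 CPM at P5. It fell to 375 CPM at P60. Gldn (gliomedin), which Schwann cell microvilli present at the node, had a mean of 0.701 CPM at E17 and 115 to 171 CPM in the P1 libraries (log2 7.80 ± 0.23, edgeR adjusted p = 1.5e-19). Both fell from P24 to P60 (log2 -0.85 and -0.48, edgeR adjusted p of 0.0132 and 0.0385), while Cadm2 rose and the other 3 Cadm genes were not called.

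Among 4 genes of the processing of Cadm proteins, 2 rose and 1 fell from E13 to E17 (62.2% of all genes called), 1 fell from P1 to P5 (17.6%) and 2 fell from P5 to P14 (29.6%). None was called from E17 to P1, from P14 to P24 or from P24 to P60, where 29.5%, 5.45% and 16.1% of all genes were. P60 against P1 had 2 higher and 2 lower (61.1% of all genes called), and P14 against E17 1 higher and 2 lower (56.5%). Adam10, a membrane protease that can shed the outer part of Cadm1, had 451 to 498 CPM at E17 and 1092 to 1215 CPM at P14 (log2 1.31, edgeR adjusted p = 1.0e-04). Ncstn, a subunit of the gamma-secretase that cuts the remaining stub, was at a mean of 170 CPM at E17 and 103 CPM at P14 (log2 -0.72, edgeR adjusted p = 2.1e-06).

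The genes with the most similar course were sought among 11205 protein-coding genes by Pearson correlation of log2 CPM over the 28 libraries. These libraries differ in stage, depth and GC slope, and r was not adjusted for any of them. Between members, r was -0.84 for Cadm1 and Cadm3, -0.58 for Cadm1 and Cadm2, and 0.77 for Cadm2 and Cadm3 (Spearman's rho 0.62). Cadm3 and Cadm4 had an r of 0.23 but a rho of 0.70, Cadm2 and Cadm4 0.31 and 0.35, and Cadm1 and Cadm4 -0.03 and -0.44. Most like Cadm1 were Negr1, which encodes a GPI-anchored adhesion molecule (0.961), Epha5, an ephrin receptor gene (0.961), and Tmem165 of the Golgi (0.950). Most like Cadm2 were Lpin1, which encodes a phosphatidate phosphatase (0.956), Cdc42ep3 (0.929) and Tfdp2 (0.927).

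Most like Cadm3 were Ackr1 (0.994), Chn2, which encodes a chimaerin (0.987), and Nfasc, the gene of neurofascin (0.983). Nfasc had means of 74.3 CPM at E13, 2.15 CPM at E17, 85.8 CPM at P1 and 669 CPM at P14, and thus also a low point at E17. Most like Cadm4 were Col5a3, a collagen V chain gene (0.986), Cmtm5 (0.982) and Nod1 (0.979). By Spearman correlation, 2 of the 3 genes stayed among the first 3 for Cadm1 and 1 of the 3 each for Cadm2, Cadm3 and Cadm4.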

How the data were processed

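The authors prepared stranded poly-A libraries, aligned the reads with STAR 2.6.1c to GRCm38.p5 (per the submitters' processing notes, while the methods print GRCh38.p10, a human build name) and counted them with featureCounts. The deposited table holds these read counts without any normalization by the authors. Strand and multi-mapping settings of the counting are not given in the sources used here, so that overlapping genes are uncertain. Of 41605 identifiers, 41519 (99.79%) were matched to GENCODE M21.

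Genes were filtered with filterByExpr, scaled by TMM and tested in 1 edgeR 4.0.16 quasi-likelihood fit of 28 libraries (R 4.3.3) with the stage as the only term. A call is a Benjamini-Hochberg adjusted p under 0.05 over 17700 genes. The SE is the log2 fold change over the square root of F. Promoter sequences are RefSeq's. No 2 libraries of a stage held identical counts. Total counts of 13899895 to 37662780 make counting error small except for genes with few reads, such as Cadm2 at E17.

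The members, lists and comparisons were chosen with earlier results of these data known. Named genes were the 4 members, Epb41l2, Epb41l3, Mpp6, the 2 genes of highest level per length in each of 4 lists (cytoplasmic partners, nectins and relatives, other axon-glia adhesion, processing of Cadm proteins) and the 3 genes most like each member. Other genes named were chosen after their values were seen. Alternatives were other scalings, filters, tools (DESeq2 1.42.0, limma 3.58.1), sets of libraries and a replicate block. The shares and sums without the GC-deviating libraries were chosen after seeing the data.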

Additional observations from a re-analysis of the deposited data

Results flagged for a closer look

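Of 175 groups of 4 libraries, 6 held a library far from the other 3 by Dixon's criterion, and chance gives about 1 in 20. Cadm4 had 537 CPM in P1 replicate 1, against 1055 to 1131 CPM in the other P1 libraries. This library deviated from its stage with GC content (-0.43 log2 units per 10 percentage points), and the longest transcript of Cadm4 has 60.02% GC. Whether GC content set this value was not tested.

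Ackr1, which shares exonic bases with Cadm3, had 9.87 CPM in P1 replicate 4, against 6.12 to 6.75 CPM in the others, and the same library held the highest Cadm3 level of the stage (75.5 CPM). Nfasc had 607 CPM in P60 replicate 1, against 698 to 709 CPM. Epb41l3 had 46.3 CPM in the same library, against 35.8 to 37.5 CPM. Gldn had 510.4 CPM in P24 replicate 2, against 386 to 406 CPM. Nectin2 had 15.5 CPM in P60 replicate 4, against 12.5 to 12.8 CPM.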

How the results depend on the processing

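Of 32 tested changes of the 4 members, 15 kept their direction and their side of the threshold under every alternative run, among them all 4 of E17 against E13. The others were Cadm1 in P60 against P1, Cadm2 in P1 and P14 against E17 and in P60 against P1 and P24, Cadm3 in P1 and P14 against E17 and in P5 and P60 against P1, and Cadm4 in P24 against P14 and P60 against P24, which stayed uncalled. Among 348 values under alternatives other than leaving out 1 library, 304 kept both, 31 gained a call, 7 lost one and 6 changed sign, and among 256 with 1 library left out 232 kept both. Causes were not tested except where a setting's construction shows one.

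A 2-fold minimum ended the calls of Cadm1 for P1 against E17 (-0.34), P5 against P1 (-0.42), P24 against P14 (-0.55) and P14 against E17 (-0.93), of Cadm1 for P24 against E13 (-0.36), of Cadm2 for P14 against E13 (0.73) and of Cadm3 for P14 against P5 (0.91). No filter on low counts ended Cadm1 for P1 against E17 (-0.29) and Cadm2 for P24 against P14 (0.99) and P14 against E13 (0.71). Library size alone shifts all log2 fold changes by -0.74 to 0.18. With it Cadm1 gained P14 against P5 (-0.35), Cadm2 P14 against P5 (-0.83) and Cadm3 P24 against P14 (0.40). The sign turned for Cadm1 in P60 against P24 (0.041) and P14 against E13 (-0.55, called as lower), for Cadm2 in P14 against E13 (-0.026) and P24 against P1 (-0.31), and for Cadm4 in P5 against P1 (-0.15) and P60 against P14 (0.075). Cadm2 in P24 against P1 also turned with no filter (-0.056), a stricter filter (-0.00017), without E13 (-0.0023) and with limma-voom (-0.067).

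Calls gained were as follows. With limma-voom, Cadm1 P14 against P5 (-0.16), Cadm2 P5 against P1 (-0.33) and P14 against P5 (-0.63), Cadm3 P24 against P14 (0.31), and Cadm4 P14 against P5 (0.58), P60 against P1 (0.36) and P14 against E17 (0.54) were called, and Cadm4 turned sign in P1 against E17 (0.066) and P5 against P1 (-0.11). In fits of the compared stages alone, Cadm1 P14 against P5 (-0.16), Cadm2 P14 against P5 (-0.65), Cadm3 P24 against P14 (0.35), and Cadm4 P14 against P5 (0.60), P60 against P1 (0.54) and P14 against E17 (0.54) were called, and Cadm1 P24 against E13 (-0.39) and Cadm2 P14 against E13 (0.71) were not. Without the E13 libraries, Cadm2 P14 against P5 (-0.66), Cadm3 P24 against P14 (0.35), and Cadm4 P14 against P5 (0.59), P60 against P1 (0.53) and P14 against E17 (0.51) were called. Without the 3 GC-deviating libraries the same 5 were called (-0.66, 0.35, 0.59, 0.36 and 0.55), and Cadm4 turned sign in P1 against E17 (0.10) and P5 against P1 (-0.14). The DESeq2 Wald test called Cadm4 in P14 against P5 (0.61) and P60 against P1 (0.57), and DESeq2 size factors the latter (0.57). Cadm4 P60 against E17 was called with limma-voom (0.42), in the compared stages alone (0.44) and without E13 (0.43), and Cadm1 P14 against E13 with limma-voom (0.28).

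The replicate numbers were not taken as pairing the libraries, since they name different animals at each stage. Libraries of the same number were nevertheless more alike than others, which the fit with the stage alone leaves out, and the reason was not tested. Libraries of the same number in different stages correlated with a median of 0.084 over 84 pairs, 33 of them over 0.1, against a median of -0.04 and 29 of 252 over 0.1 for different numbers, and 17 of 28 libraries correlated best on average with their own number. Each stage held 2 male and 2 female samples, and the labels tie no replicate number to either. With the replicate block, Cadm4 was called in P60 against P1 (0.55) and P14 against E17 (0.53), and no other call of the 32 changed.

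With 1 library left out, Cadm1 ranged from 0.084 to 0.34 in P14 against E13, from -0.40 to -0.29 in P1 against E17, from -0.46 to -0.35 in P5 against P1 and from -0.16 to 0.028 in P60 against P24. Cadm2 ranged from 0.85 to 1.08 in P24 against P14 and from -0.15 to 0.082 in P24 against P1 and from -0.76 to -0.54 in P14 against P5, and Cadm3 from -0.032 to 0.10 in P60 against P24 and from 0.30 to 0.36 in P24 against P14. Cadm4 ranged from -0.19 to 0.10 in P1 against E17, from -0.14 to 0.14 in P5 against P1, from -0.12 to 0.015 in P5 against E17, from 0.53 to 0.67 in P14 against P5, from 0.48 to 0.62 in P14 against E17 and from 0.36 to 0.64 in P60 against P1.

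Over all genes, P24 against P14 gave 964 calls in the fit of all libraries, 469 with a 2-fold minimum, 2030 in the compared stages alone, 2421 without E13, 2519 without the GC-deviating libraries and 3352 with limma-voom. P60 against P24 gave 2845, 1055, 4496, 5205, 5410 and 5717 in the same order, and P5 against P1 3114, 1033, 4802, 5865, 4899 and 6686. P1 against E17 gave 5225, with 2074 under the 2-fold minimum, 7845 without the GC-deviating libraries and 9279 with limma-voom, and P14 against P5 gave 5233, with 2127, 8051 and 9005 and 8245 in the compared stages alone. The 2-fold minimum gave 6276 of 11014 for E17 against E13, 6292 of 10820 for P60 against P1 and 5560 of 10001 for P14 against E17. Library size alone moved 12 of 28 stage means by more than 1 SD and the longest transcript as length moved 19 of 28 shares, with no change of the member that leads by its stage mean. Depth limits Cadm2 at E17.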

Other observations

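Other cell types that the nerve can hold moved along the timeline as well, given here as values. The 5 mesenchymal markers summed to 1519 to 2590 CPM at E13, 16117 to 18074 CPM at E17 and 4914 to 7066 CPM at P60. Col3a1 and Col1a1, with means of 10862 and 3963 CPM at P1 and of 1157 and 934 CPM at P60, fell, while Dcn (506 to 3244 CPM), Lum (153 to 331 CPM) and Pdgfra (123 to 182 CPM) rose over the same interval. The 6 mast cell markers, a cell type in which Cadm1 is known, summed to 36.0 to 111 CPM at E17 and 6.22 to 19.3 CPM at P14 and P24, and to 27.3 to 44.7 CPM at P60. Cadm1 had its lowest mean at P60, but did not differ there from P24 beyond the spread. The 6 skeletal muscle markers reached 352 CPM in 1 E13 library and stayed at 27.4 CPM or less in all later ones. The endothelial markers summed to 150 to 173 CPM at P1 and 376 to 411 CPM at P60.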
